A study of Mus musculus with 2 samples.

Results

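The loops described here are the fine ones of a Micro-C loop list from mouse embryonic stem cells, namely those with anchors of 5 kb and a span of 100 kb to 1 Mb on chromosomes 1 to 19. There were 1096 such loops among the 4982 in the list. They were taken by anchor width and by the distance between anchor midpoints, and no gene or score entered the choice. The same rule with anchors of 10 kb gave 2713 loops for comparison.

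The cells were V6.5, a male mouse embryonic stem cell line that is otherwise wild type. They were transfected with siGLO, a control siRNA reagent, at 50 nM and collected after 48 hours. There were 2 samples in 1 group, siControl, and 1 loop list stands for both. The list gives no value per sample and no read depth, so no spread between samples could be measured and no difference below was tested against one. Shares carry Wilson 95% intervals, and these reflect only the number of loops or anchors counted.

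Micro-C reads contacts between distant stretches of DNA: fixed chromatin is digested with micrococcal nuclease, and the ends that lie close together are ligated and sequenced. A loop is a focal excess of contacts between its anchors. Many loops in mammalian cells form when cohesin extrudes chromatin until it meets CTCF bound at convergent motifs, and others join promoters with enhancers or with other promoters. In embryonic stem cells, genes of pluripotency are active, while many developmental regulators are silent and marked by Polycomb.

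The sequences that the anchors can be read for here are those of promoters and miRNAs, since no genome sequence was used. At 5 of the anchors a promoter holds, on either strand, a stretch of the motif that CTCF recognises: CCA, any 2 bases, AG, any 2 bases and GGC. These stretches are shown because their reading direction can be set against the direction of the loop. Capitals mark the match, the RefSeq build is GRCm38.p6, and each stretch is printed 5′ to 3′ on the strand that reads CCA at the left of the match.
Cebpb, chr2:167688665-167688704, plus strand: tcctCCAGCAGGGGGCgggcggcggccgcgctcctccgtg
Lyrm7, chr11:54860598-54860639, minus strand: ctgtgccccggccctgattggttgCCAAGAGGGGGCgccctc
Mgat5b, chr11:116918769-116918828, plus strand: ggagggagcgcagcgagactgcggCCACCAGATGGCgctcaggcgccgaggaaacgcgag
Trim31, chr17:36897880-36897935, plus strand: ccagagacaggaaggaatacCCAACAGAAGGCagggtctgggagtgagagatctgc
Clec4g, chr8:3720750-3720809, minus strand: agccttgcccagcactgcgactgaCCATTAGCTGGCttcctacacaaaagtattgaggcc

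The cluster of Mir302 genes and Mir367, whose miRNAs are characteristic of embryonic stem cells, lay inside 1 anchor, and its listed 3p strands are shown with the seed (bases 2 to 8) in capitals. They are grouped by seed, since miRNAs with the same seed share most targets. The hairpins of Mir302b, Mir302c, Mir302a, Mir302d and Mir367 lay on the plus strand between chr3:127545228 and 127545807.
miR-302b-3p: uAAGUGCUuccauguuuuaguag
miR-302d-3p: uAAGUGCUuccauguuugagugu
miR-302c-3p: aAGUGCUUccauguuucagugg
miR-367-3p: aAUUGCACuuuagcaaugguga

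The 5 kb loops were shorter than the 10 kb loops of the same range. Their median span was 210 kb (95% interval 200 to 225 kb) and that of the 10 kb loops was 320 kb (310 to 330 kb). Spans of 100 to 200 kb made up 501 of the 5 kb loops (45.7%), against 21.3% of the 10 kb loops. Only 27 of the 5 kb loops spanned 700 kb or more, of which the longest spanned 995 kb. At the lower limit, 28 loops of exactly 100 kb were just inside and 33 of 95 kb just outside. At the upper limit, 9 loops of 5 kb anchors lay beyond, from 1010 to 1440 kb.

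**Figure D1:**
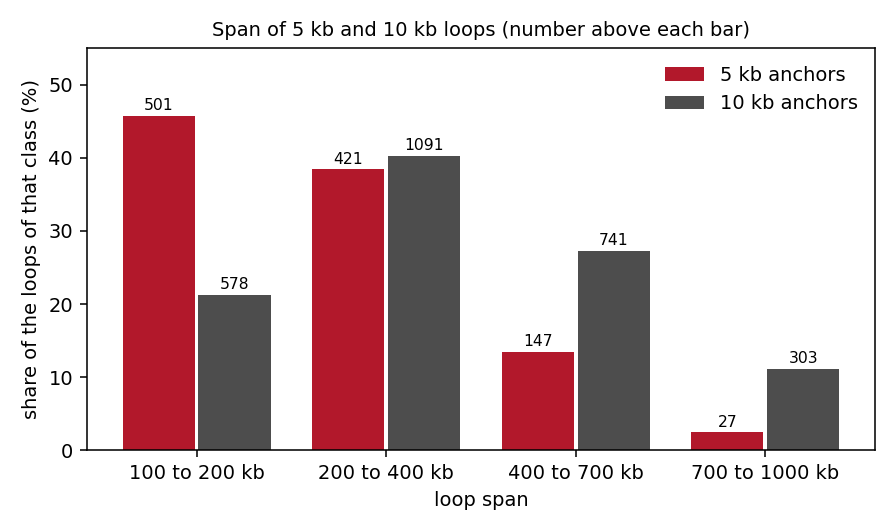
Share of loops (%) in 4 span classes for loops with 5 kb anchors (red, left) and 10 kb anchors (grey, right), with the number of loops above each bar. The 5 kb loops are most frequent at 100 to 200 kb (501 loops) and the 10 kb loops at 200 to 400 kb (1091 loops).

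Peak scores, which are the authors' own and have no unit, had a median of 4.94 (4.86 to 5.06) in 5 kb loops and 3.96 (3.91 to 3.99) in 10 kb loops. The peak pixel of the contact map, in the authors' signal units, had a median of 5.00 in 5 kb loops and 6.77 in 10 kb loops. A pixel of a finer map covers less area, so these values are not on a common footing. Relative to the mean of its 8 neighbours, the peak pixel stood at a median of 1.76 in 5 kb loops and 1.66 in 10 kb loops. Within the 5 kb loops the median score differed little with span, from 4.84 at 100 to 200 kb to 5.17 at 400 to 700 kb.

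Fewer 5 kb anchors than 10 kb anchors held a gene end at their listed widths, and more of them did once widths were equal. Of 20665 protein-coding gene records on autosomes, 328 had their first or last base in such an anchor, which is 1.59% of genes, and 5.27% had one in a 10 kb anchor. The 1096 loops had 2132 distinct anchors, and a protein-coding gene ended or began in 298 of them (13.98%, 12.6 to 15.5%). Of the 10 kb anchors, 974 of 5045 did (19.3%, 18.2 to 20.4%). The difference of -5.33 percentage points (-7.12 to -3.46) turned round once the widths were made equal. With the 5 kb anchors widened to 10 kb about their centres, 24.8% of them held a gene end (2.92% of all genes had an end there) against 19.3%, a difference of 5.46 points (3.36 to 7.62). With the 10 kb anchors cut to their central 5 kb, the shares were 13.98% against 10.7% (2.79% of all genes had an end in these central stretches), a difference of 3.31 points (1.65 to 5.06).

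The order held within chromosomes for the most part. At 10 kb width the 5 kb loops had the higher share on 14 of 19 chromosomes, up to 35.9% against 18.3% on chromosome 11. The difference was 3.62 points when the 10 kb loops were weighted to the chromosomes and spans of the 5 kb loops, and 2.09 points at 5 kb width. By span at 10 kb width it was 5.18 points (1.41 to 8.95) at 100 to 200 kb, and 1.54 points (-1.62 to 4.87) at 200 to 400 kb. It was 3.59 points (-1.07 to 8.90) at 400 to 700 kb and 1.90 points (-6.34 to 14.3) at 700 to 1000 kb. From 200 kb upward the intervals span no difference. When both kinds of anchor were widened by 5 kb on each side, the shares were 33.4% and 33.8% and could not be told apart. This setting leaves the widths unequal, with the 10 kb anchors still the wider, so it does not bear on the comparison at equal widths.

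**Figure D2:**
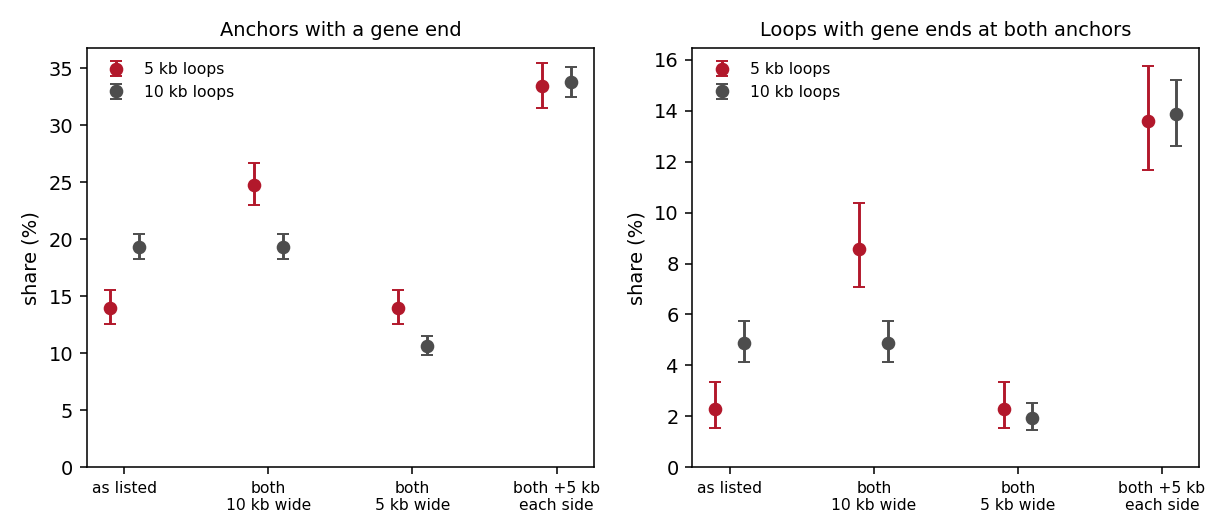
Share (%) of anchors with a protein-coding gene end (left panel) and of loops with gene ends at both anchors (right panel), for 5 kb loops (red) and 10 kb loops (grey), under 4 settings of anchor width, with Wilson 95% intervals as bars. The 5 kb loops sit below the 10 kb loops at the listed widths (13.98% against 19.3% of anchors) and above them with both at 10 kb (24.8% against 19.3%).

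Both starts and 3′ ends of genes were found in the 5 kb anchors. Strand was known for 16457 genes with a listed start, none of them on chromosome 18, which was left out of these counts. Of these genes, 0.79% had a start in a 5 kb anchor and 2.89% in a 10 kb anchor. A gene start lay in 125 of 2025 of the 5 kb anchors (6.17%, 5.21 to 7.31%) and a 3′ end in 124 (6.12%, 5.16 to 7.25%). The 10 kb anchors had 9.37% and 9.41%, or 4.65% and 4.80% in their central 5 kb. The genes had 20085 listed starts but a single 3′ end per record. The shares of starts and of 3′ ends are therefore not on a common footing. For direction, a gene with several listed starts in an anchor was counted once per anchor of a loop. In 5 kb anchors, 75 of 133 such genes faced into the loop (56.4%, 47.9 to 64.5%), against 266 of 516 (51.6%, 47.2 to 55.8%) in 10 kb anchors. Both intervals include an even split. Ends of long noncoding RNA genes lay in 11.4% of the 5 kb anchors and 12.5% of the 10 kb anchors at their listed widths.

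Any overlap with a gene record was far more common than an end. Of the 5 kb anchors, 50.1% (48.0 to 52.3%) overlapped a protein-coding gene, and of the 10 kb anchors 52.9% (51.5 to 54.3%), at their listed widths. Most 5 kb anchors that touched a gene therefore lay within it. The gene table gives no exons, so exons, introns and untranslated regions were not told apart.

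Gene ends lay at both anchors of 25 of the 5 kb loops (2.28%, 1.55 to 3.35%), at 1 anchor of 259 (23.6%) and at neither anchor of 812 (74.1%). Of the 10 kb loops, 132 (4.87%, 4.12 to 5.74%) had gene ends at both anchors. At a width of 10 kb for both, the shares were 8.58% against 4.87%, a difference of 3.71 points (1.96 to 5.67). By span this difference was 5.43 points (1.94 to 9.05) at 100 to 200 kb, and its interval spans 0 in each longer class. At 5 kb width the shares were 2.28% against 1.92%, and the interval of the difference (-0.57 to 1.52 points) spans 0. With the 10 kb loops weighted to the chromosomes and spans of the 5 kb loops, the difference was 2.18 points at the 10 kb width and -0.695 points at the 5 kb width. Peak scores within the 5 kb loops had medians of 4.86 (4.19 to 5.67) in the 25 loops, 5.04 (4.83 to 5.20) with an end at 1 anchor and 4.92 (4.84 to 5.06) at neither, and these intervals overlap.

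The 25 loops joined starts and 3′ ends in every combination. Strand was listed on both sides for all but 8 of them. A start here is the 5′ end of a gene record by its strand, which can differ from a listed start. In 5 of the loops with strand listed such a start lay at both anchors, in 10 at 1 anchor, and in 2 at neither. Cd209c, Kcnc4, Fnbp1 and Pax9 had a record start in an anchor of these loops but no listed start there. Hs3st3b1 and Hs3st3a1, which encode heparan sulfate sulfotransferases, faced away from each other with their starts at the anchors chr11:63920001-63925000 and chr11:64435001-64440000. That loop spanned 515 kb, scored 6.63 and enclosed Cox10, an enzyme of heme A synthesis. The lectin receptor genes Clec4g and Cd209c were joined by the starts of their records over 230 kb (score 5.84) around Cd209a, Cd209b, Cd209d and Cd209e. Dvl3, of Wnt signalling, and Eif4g1, a translation initiation factor, were joined start to start over 155 kb (score 4.86) around 9 genes.

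Several of these pairs were regulators of development. Irx3 and Irx5, Iroquois homeobox genes, were joined over 555 kb (score 6.67) with no whole protein-coding gene between them. The anchor chr8:91800001-91805000 held the start of Irx3, and chr8:92355001-92360000 held an end of Irx5. Nkx2-1, a homeobox gene of thyroid, lung and forebrain, and Pax9, of the pharyngeal pouches and teeth, were joined over 160 kb (score 5.67) around Nkx2-9. The 3′ end of Nkx2-1 and the record start of Pax9 lay at the anchors. The listed start of Pax9, at chr12:56695471, lay in the adjoining left anchor of the 850 kb loop from Foxa1. The 3′ end of Eomes, a T-box gene of mesoderm and trophoblast, was joined over 445 kb (score 7.15) to the shared start region of Azi2 and Zcwpw2. Fgf15 was joined to Ano1, a chloride channel gene, over 315 kb (score 5.81), around the growth factor genes Fgf3 and Fgf4.

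The other pairs held genes of many kinds. The highest score among them, 8.19, belonged to a loop of 115 kb from the 3′ end of Emp2, a tetraspan membrane protein gene, to the start of Tekt5, a tektin gene. Prelp and Fmod, which encode leucine-rich proteoglycans of the matrix, were joined 3′ end to 3′ end over 135 kb (score 4.73). From 1 anchor at Cd40, a receptor of the tumour necrosis factor receptor family, 2 loops ran 205 kb to Slc35c2 (score 3.38) and 280 kb to Zfp663 (score 5.15). Abtb2 was the gene with an end in each anchor of a loop, from its start to its 3′ end over 150 kb (score 4.13), and among the 5 kb loops it was alone in that. Etnk2 and Sox13 were joined to Snrpe, a spliceosomal protein gene, over 230 kb (score 5.79). Bola3 and Tet3, a DNA hydroxylase gene, were joined to Dguok over 145 kb (score 4.19). The lowest score among the 25 was the 3.38 of the loop to Slc35c2.

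**Figure D3:**
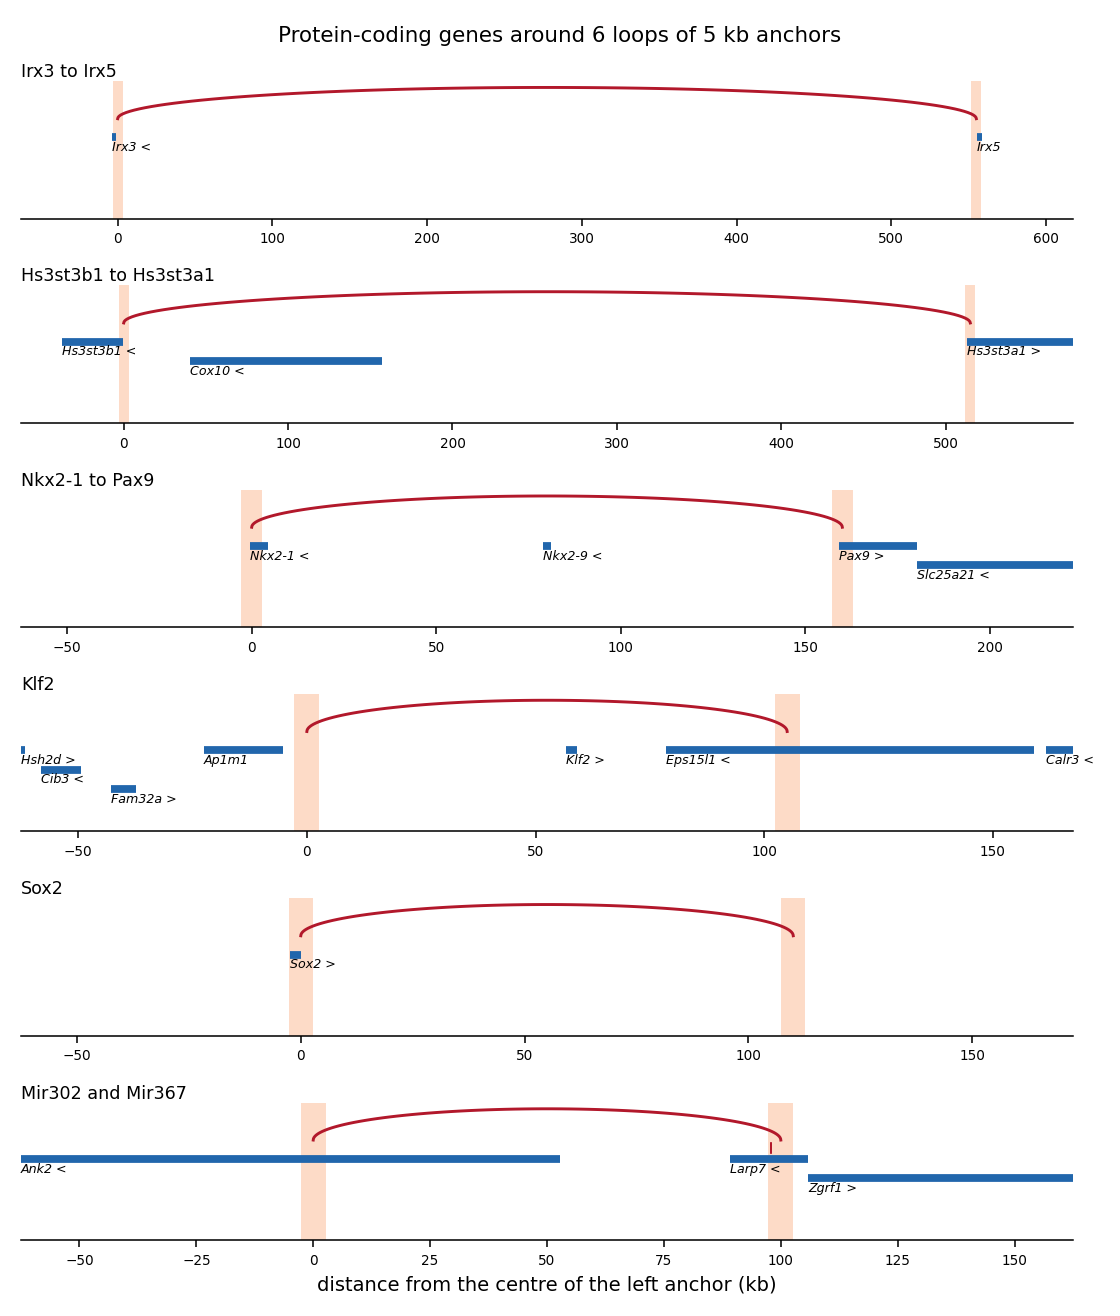
Protein-coding genes (blue bars, with > or < for strand where it was listed) around 6 loops of 5 kb anchors, drawn to scale in kb from the centre of the left anchor, with anchors shaded and the loop as an arc; the miRNA genes of the cluster of Mir302 genes and Mir367 are the red mark at the right anchor of the lowest panel. The Irx3 to Irx5 loop (555 kb) holds no whole gene, the Klf2 loop (105 kb) holds Klf2 alone, and the Sox2 loop (110 kb) runs from Sox2 into a stretch with no protein-coding gene.

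Around the 5 kb anchors, genes were denser on the outside of the loop than on the inside. Gene starts were counted in 5 kb bins out to 50 kb on each side of the anchors of the 1040 loops off chromosome 18. A gene with several listed starts in a bin was counted once for that bin. Outside the loop there were 7.61 starts per 100 anchors and bin, and inside 4.51, a ratio of 1.69. The bin of the anchor itself had 6.39. In 10 kb loops the values were 5.52 outside and 3.76 inside, a ratio of 1.47. The outside count was higher on 18 of 18 chromosomes for both kinds of loop. The 5 kb ratio stayed between 1.66 and 1.71 when each chromosome was left out in turn.

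The 3′ ends of genes had the same tilt, with a peak close to the anchor. Outside 5 kb loops there were 7.32 of them per 100 anchors and bin, and inside 4.12, a ratio of 1.78, against 1.61 for 10 kb loops. Their highest bin, at 9.18, was centred 10 kb outside the anchor centre, while the anchor bin had 6.44. Gene starts were highest 25 kb outside, at 8.75. The ratio of starts outside to inside was 1.55 for 5 kb loops of 100 to 200 kb, 1.77 at 200 to 400 kb, 2.07 at 400 to 700 kb and 2.67 at 700 to 1000 kb, the last from 32 starts against 12. In 10 kb loops of the same classes it was 1.28, 1.504, 1.64 and 1.57. It was 1.64 for loops with no gene end at either anchor. Of genes with a listed start in the outside flank of 5 kb loops, each counted once per flank, 46.6% (44.1 to 49.2%) faced the partner anchor. In the inside flank 53.8% (50.5 to 57.1%) did. In 10 kb loops the shares were 49.4% (47.5 to 51.2%) outside and 54.9% (52.7 to 57.2%) inside.

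**Figure D4:**
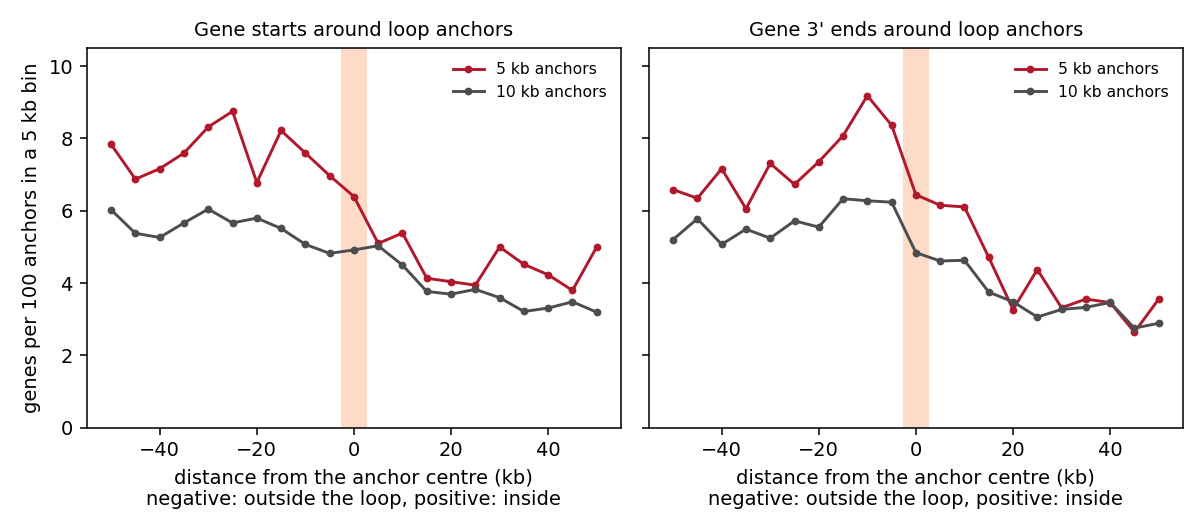
Gene starts (left panel) and gene 3′ ends (right panel) per 100 anchors in bins of 5 kb against distance from the anchor centre in kb, for 5 kb loops (red) and 10 kb loops (grey), with the central anchor bin shaded; negative distances lie outside the loop. Counts outside the 5 kb loops (7.61 starts per bin) exceed those inside (4.51), and 3′ ends are highest 10 kb outside (9.18).

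Most 5 kb loops enclosed a whole gene. At least 1 protein-coding gene lay whole between the anchors of 750 loops (68.4%, 65.6 to 71.1%), against 66.2% (64.4 to 68.0%) of the 10 kb loops. The difference of 2.23 points (-1.08 to 5.46) has an interval that spans 0. It was 5.64 points with the 10 kb loops weighted to the chromosomes and spans of the 5 kb loops, and -2.29 points among loops at or above the median score of their own class. Of all protein-coding genes, 1453 (7.03%) were enclosed by a 5 kb loop and 19.4% by a 10 kb loop. Exactly 1 gene was enclosed by 405 of the 5 kb loops (37.0%, 34.1 to 39.9%), against 27.2% of 10 kb loops, a difference of 9.75 points (6.47 to 13.1). That share was higher in 5 kb loops in each span class, with 43.5% against 26.0% at 400 to 700 kb. It was 27.5% for 10 kb loops weighted to the chromosomes and spans of the 5 kb loops. Loops with 5 or more enclosed genes were fewer, 58 (5.29%) against 11.3%, or 10.1% after weighting.

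Loops with no protein-coding gene at all between the anchors were also fewer among 5 kb loops. There were 31 of them (2.83%, 2.00 to 3.99%), against 183 of the 10 kb loops (6.75%, 5.86 to 7.75%), a difference of -3.92 points (-5.22 to -2.46). The 10 kb share was 7.39% after weighting. The 5 kb share was the lower on 16 of 19 chromosomes and in all 4 span classes, from 2.79% against 6.92% at 100 to 200 kb to 3.704% against 6.27% at 700 to 1000 kb, although from 400 kb upward the intervals of the difference include 0. The mean number of enclosed genes was 1.44 (SD 1.88 over loops) against 1.92 (SD 2.88). Per 100 kb of span it was 0.561 in 5 kb loops and 0.518 in 10 kb loops over all spans. By span class it was higher in 5 kb loops at 100 to 200 kb only (0.891 against 0.835), and lower at 200 to 400 kb (0.553 against 0.642), at 400 to 700 kb (0.341 against 0.461) and at 700 to 1000 kb (0.286 against 0.344).

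The 5 loops with the most enclosed genes held 12 to 20. A loop of 740 kb on chromosome 6 enclosed 20 genes, most of them vomeronasal receptor genes from Vmn1r40 to Vmn1r54, and scored 5.51. A loop of 305 kb on chromosome 17 from Trim31 enclosed 15, among them H2-M5, Mog, a myelin protein gene, Gabbr1, a GABA receptor gene, and olfactory receptor genes from Olfr90 to Olfr94. A loop of 345 kb on chromosome 4 enclosed 14, of which all but Lao1 were olfactory receptor genes. A loop of 425 kb on chromosome 12 enclosed 13 genes of the Serpina family of protease inhibitors and scored 8.93. A loop of 210 kb on chromosome 8 enclosed 12 mixed genes, such as Mcoln1, a lysosomal channel gene, and Retn, the resistin gene.

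As among all genes, more pluripotency genes lay whole inside 5 kb loops than had an end at their anchors, and most did neither. Of 43 such genes, 8 were enclosed (18.6%, exact 95% interval 8.39 to 33.4%) and 1, Sox2, had an end at an anchor (2.33%, 0.059 to 12.3%), beside 7.03% and 1.59% of all genes. Klf2, a Krüppel-like factor of the naive state, was the only whole gene in a loop of 105 kb between chr8:72260001-72265000 and chr8:72365001-72370000. That loop scored 9.72, and its peak pixel was 2.78 times the mean of its neighbours. Neither anchor held a gene end. The right anchor lay within Eps15l1, an endocytosis gene, and the left anchor was 2.62 kb from Ap1m1, an adaptor subunit gene. Tfcp2l1, a transcription factor of the naive state, was likewise alone in a loop of 195 kb (score 6.44), whose left anchor lay within Clasp1. Sall4, another pluripotency factor, was alone in a loop of 200 kb with a low score of 3.26, and Etv5 in a loop of 270 kb (4.26). The others enclosed were Dppa5a (135 kb, 6.04), Fgf4, Dnmt3l (175 kb, 3.72) and Spry4 (220 kb, 4.11). For 10 kb loops, 3 of the 43 had an end at an anchor and 15 were enclosed, beside 5.27% and 19.4% of all genes.

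The Sox2 loop spanned 110 kb and scored 3.79, below the lower quartile of 5 kb loops, 4.19. Its left anchor, chr3:34650001-34655000, held nearly the whole of the gene, and the protein-coding gene nearest to its right anchor was Sox2 itself, 108 kb away.

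Developmental regulators were at 5 kb anchors in greater proportion than genes overall. Over the 5 developmental lists together, 13 of 153 genes had an end at an anchor (8.50%, 4.60 to 14.1%), beside 1.59% of all genes, and 36 were enclosed (23.5%, 17.1 to 31.1%), beside 7.03%. For 10 kb loops, 32 of the 153 had an end at an anchor and 68 were enclosed, beside 5.27% and 19.4% of all genes. These lists were drawn up with earlier results of these data known, so these shares are a description. The 14 loops with such an end were long, with a median span of 500 kb (160 to 705 kb), against 210 kb (200 to 225 kb) for the remaining 1082, and their median score was 5.64 (4.06 to 8.28), against 4.93.

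The neuroectoderm list, of transcription factors of the early nervous system, had 7 of its 55 genes at anchors (12.7%, 5.27 to 24.5%, beside 1.59% of all genes). They were Neurog2, Nkx2-1, Nkx2-2, Irx1, Irx3, Irx5 and Rax. Irx1, at chr13:71960001-71965000, had the highest score of these, 9.47, in a loop of 665 kb that enclosed no whole gene. The other anchor, chr13:72625001-72630000, held the listed start of Irx2, although both ends of the Irx2 record lie outside it. Nkx2-2, of ventral neural tube identity, had 2 loops from its 3′ end, of 215 kb (5.29) and 555 kb (4.09), both over Nkx2-4 and Xrn2. Its listed start, at chr2:147186402, lay in an anchor of a further 5 kb loop, although both ends of the Nkx2-2 record lie outside that anchor. The other anchor of that loop held the listed start of Pax1, at chr2:147364994. Neurog2, a proneural factor, had a loop of 125 kb (4.04), and Rax, of the eye field, one of 105 kb (5.61). A further 14 genes of this list were enclosed (25.5%, beside 7.03% of all genes), among them Sox1 alone in 170 kb (4.84) and Olig3 alone in 275 kb (4.62).

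Of the endoderm list, 2 of 19 genes were at anchors. The start of Foxa2, a pioneer factor of endoderm, was joined over 680 kb (score 8.28) to chr2:147365001-147370000, with no whole gene between, and Foxa2 was also alone inside another loop of 300 kb (4.24). Foxa1 had loops from adjoining anchors, of 850 kb from its start (8.57) and 260 kb from its 3′ end (5.87). Pdx1 and Cdx2, homeobox genes of gut and pancreas, lay together in a loop of 405 kb (7.46), and Gata4 in one of 305 kb (6.83). Of 32 mesoderm genes, 3 were at anchors, among them Eomes and Foxc2 (395 kb, 4.06). Hand1 and Tbx5, regulators of heart development, were each alone in a loop, of 110 kb (7.31) and 320 kb (6.27).

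Of 39 Hox genes, which pattern the body axis, 13 were enclosed (33.3%, 19.1 to 50.2%), beside 7.03% of all genes. Of the same 39, 1, Hoxd13, had an end at an anchor (2.56%, 0.065 to 13.5%), beside 1.59% of all genes. It was the start, in a loop of 705 kb (3.79) that enclosed Lnpk and Evx2. The loop around Hoxb4 to Hoxb9 and Hoxb13 spanned 155 kb (7.52) and held no other protein-coding gene. The Hoxc loop, of 190 kb (5.06), held Hoxc4, Hoxc5, Hoxc6, Hoxc8 and Smug1. Hoxd1 and Hoxd4 lay with Mtx2 in a loop of 420 kb whose score of 10.4 was the ninth highest. The genes of each cluster share their loop and do not count as independent.

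Signalling ligands had 4 of 45 genes at anchors (8.89%, 2.48 to 21.2%), beside 1.59% of all genes, namely Wnt7a, Wnt7b, Wnt9a and Fgf15, and 5 enclosed (11.1%, beside 7.03%). The start of Wnt7a lay in the anchor of a loop of 125 kb with a score of 7.99, and that of Wnt9a in one of 175 kb (7.03). Wnt3, which acts in gastrulation, was alone in a loop of 150 kb (6.92). Of 30 imprinted genes, which are expressed from the copy of 1 parent, 3 were at anchors (10%, 2.11 to 26.5%, beside 1.59%) and 3 enclosed (10%, beside 7.03%). Magel2 was at the anchor of a loop of 155 kb that held its neighbour Ndn (7.34), Cdkn1c, a cell cycle inhibitor, was in a loop of 310 kb with no whole gene (6.62), and the 3′ end of Grb10, a growth inhibitor, in one of 110 kb (3.91).

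No gene of the 4 remaining lists had an end at a 5 kb anchor, where 1.59% of all genes had one. None of 25 cohesin and CTCF genes was there, which allows a share of up to 12%, and 2 were enclosed (8%, beside 7.03% of all genes): Wapl, the cohesin release factor, alone in 165 kb (5.30), and Rad21, a cohesin subunit, in 245 kb (5.58). None of 54 ribosomal protein genes was at an anchor or enclosed (up to 5.56%), where 7.03% of all genes were enclosed. For 10 kb loops 0 were at anchors and 7 enclosed, beside 5.27% and 19.4% of all genes. None of 45 genes of neuronal adhesion was at a 5 kb anchor or enclosed (up to 6.67%). For 10 kb loops 3 were at anchors and 2 enclosed, beside the same 5.27% and 19.4% of all genes. None of 28 housekeeping genes was at a 5 kb anchor (up to 10.7%), and 1, Emc7, was enclosed (3.57%, beside 7.03% of all genes). In these limits a count of 0 is taken as up to 3.

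Of the 5 kb loops, 37 (3.38%, 2.46 to 4.62%) lay wholly inside 1 protein-coding gene, against 95 of the 10 kb loops (3.50%, 2.87 to 4.26%). The intervals overlap. The 34 named host genes were long, from 163 to 1302 kb with a median of 390 kb. Trpm3, a cation channel gene of neurons and other cells, held the loop of highest score among them (550 kb, 9.45). Spata13 (160 kb, 6.80), Kcnip1, a potassium channel regulator (195 kb, 6.74), Dtna, a dystrobrevin (155 kb, 6.45), and Rgl1 (220 kb, 6.13) followed. Median scores were 4.95 (4.42 to 5.32) for loops inside 1 gene and 4.94 (4.86 to 5.06) for the others. Counted among the 37 is a loop of 170 kb between protocadherin genes, Pcdhb21 and Pcdhb22 at the left and Pcdhga4 and Pcdhgb2 at the right, which the predicted records Gm37013, Gm38666 and Gm38667 span.

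Of the 10 highest-scoring 5 kb loops, 2 had a gene end at an anchor. The highest, 14.3, joined chr15:38700001-38705000 and chr15:38925001-38930000 over 225 kb with no protein-coding gene between, and its anchors lay 7.56 kb from Atp6v1c1, a proton pump subunit gene, and 3.91 kb from Baalc. Its peak pixel of 5.30 was near the median of 5 kb loops. The next, 13.3, ran 280 kb from within Prkar2b, a protein kinase A subunit gene, around Pik3cg, a lipid kinase gene of immune cells, and had a peak pixel of 10.4, 3.28 times its neighbours. The loops with a gene end joined Ache, acetylcholinesterase, at the edge of 3 mucin and predicted genes (125 kb, 12.5) and Pkib, a kinase inhibitor gene, around Fabp7 and Smpdl3a (100 kb, 11.9). Dll1, a Notch ligand, lay with Fam120b in a loop of 405 kb (10.9).

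The 5 kb anchors were rarely shared. Only 59 of 2132 (2.77%, 2.15 to 3.55%) took part in 2 or more of the 5 kb loops, and 1 in 3, at chr5:113725001-113730000, which overlapped no protein-coding gene. Of the 59, 4 had loops to both sides. An anchor of 277 of the 5 kb loops (25.3%, 22.8 to 27.9%) overlapped that of a 10 kb loop, and both anchors of 18. None of the 1096 had a 10 kb loop at the same pair of places within 15 kb. Whether repeats across anchor widths were removed when the list was made is not given, so no limit is set on this 0. Of the 5 kb loops, 361 (32.9%, 30.2 to 35.8%) lay within a 10 kb loop, and 344 of the 10 kb loops (12.7%) held at least 1 of them.

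The loops were spread unevenly over chromosomes. Chromosome 2 held 158 of the 5 kb loops and chromosome 11 held 113, while chromosome 17 held 16 and chromosome 19 held 4. Among loops of both widths the 5 kb share ran from 4.55% (1.78 to 11.1%) on chromosome 19 to 49.6% (43.1 to 56.0%) on chromosome 11. Chromosomes with few 5 kb loops had high scores: the median was 9.46 on chromosome 19 and 6.28 on chromosome 7, with 24 loops, against 4.40 on chromosome 2. The lowest score listed was 8.53 on chromosome 19, 5.399 on chromosome 7 and 2.91 on chromosome 2. The medians of the 10 kb loops were close to 4 on all of these. What set the lowest listed score of a chromosome was not tested.

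**Figure D5:**
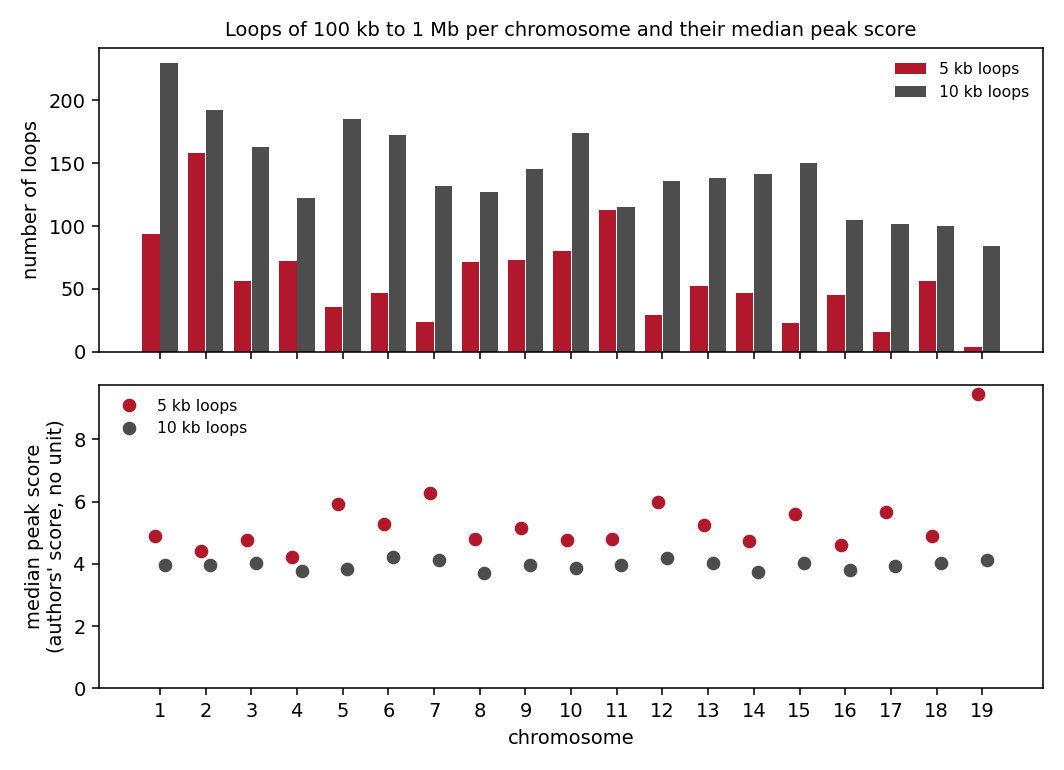
Number of loops (upper panel) and median peak score, the authors' own with no unit (lower panel), for 5 kb loops (red) and 10 kb loops (grey) on chromosomes 1 to 19. Chromosome 2 holds most 5 kb loops (158) and chromosome 19 fewest (4), with the highest median score (9.46).

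Among 1136 miRNA genes, 10 lay at 5 kb anchors and 123 were enclosed, beside 1.59% and 7.03% of all protein-coding genes. The records of miRNA genes are short and fit between anchors more readily, so these values are not on a common footing. Ends of miRNA genes lay in 6 of the 5 kb anchors (0.281%) and in 0.535% of the 10 kb anchors at their listed widths. The cluster of Mir302 genes and Mir367 lay in 1 of those 6. The loop with the cluster of Mir302 genes and Mir367, chosen after its values were seen, spanned 100 kb between chr3:127445001-127450000, within Ank2, and chr3:127545001-127550000, within Larp7, and scored 5.07, close to the median. The cluster lay within the record of Larp7, on the opposite strand, and Ank2 and Larp7 were the protein-coding genes that reached between the anchors. The 3p strands of miR-302b and miR-302d printed above share the seed AAGUGCU. The other miRNA genes at anchors were Mir193a, Mir499, Mir187, Mir7020 and Mir8114. Mir10b lay with Hoxd4 in the 420 kb loop.

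The core letters AGGNGGC, found in the CTCF motif, were searched on both strands of promoters, each taken as 250 bases before to 50 after a listed start. They were present in 49 of 148 promoters at 5 kb anchors (33.1%, 26.0 to 41.0%), in 39.2% (35.2 to 43.3%) of those at 10 kb anchors and in 33.9% of all 20085. The longer stretch defined above (CCA, AG and GGC, each parted by 2 bases), which overlaps the core, was present in 5 of 148 (3.38%, 1.45 to 7.66%), in 2.73% at 10 kb anchors and in 2.39% of all. The intervals at 5 kb anchors include the shares of all promoters. Read in the direction of the letters, 4 of these 5 matches pointed toward the partner anchor, in the promoters of Cebpb, Lyrm7, Mgat5b and Trim31 printed above, and that of Clec4g pointed away. For the core letters 50 directions were counted, from promoters of 43 genes, with 20 toward the partner and 30 away. Some promoters held more than 1 match, and this count does not cover every match. A match shows letters and not binding, and the rest of each anchor was not read.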

How the data were processed

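Micro-C was made from 2 samples of 1 group, and the authors deposited 1 loop list. The tool named per the submitters' processing notes is Juicer 1.5.6, and the build is mm10. How loops were called, with which limits, from pooled or separate samples and at what depth is not given in the sources used here. No header names the columns. The deposited peak score and regional peak score are the authors' scores, a deposited fraction behaves like a probability, and the deposited signal is the peak pixel, beside other deposited values of its neighbourhood, with unstated normalization. These meanings were inferred from the values.

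Positions were made 1-based. Genes, starts and miRNAs came from RefSeq tables of GRCm38.p6, matched by gene ID. Promoters listed 81.7% of protein-coding genes off chromosome 18. Differences of shares carry Newcombe intervals and medians order-statistic intervals, both at 95%. Work used Python 3.11.15, pandas 2.3.3 and statsmodels 0.14.6. Of 442 list entries, 426 matched (418 distinct genes, 12 lists). Counting was tested on simulated data: all planted gene ends were recovered in 5 simulations.

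Loops, lists and comparisons were chosen with earlier results of these data known. Named were loops with gene ends at both anchors, the highest scores, the longest, shortest and fullest loops, list genes at anchors or enclosed alone, loops inside 1 gene and shared anchors. The loop from Cd40 to Slc35c2 and list genes enclosed with others or at lower scores were chosen after their values were seen. Some items are not reported here.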

Additional observations from a re-analysis of the deposited data

How the results depend on the processing

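No paired analysis was possible because both samples share 1 list, and for the same reason no sample was left out. Loops are not replicates, and sequencing depth is unknown. Weighting to chromosomes and spans, the loops and genes behind the outside to inside ratio, and the longer CTCF letters were chosen after seeing the data. Of 135 alternative values, 72 stayed close to the reported value, 54 moved and 9 reversed. Close means within counting error or, for the count of list genes and the outside to inside ratios, within a set fold of the reported value. The reversals were all of differences between 5 and 10 kb loops in gene ends or starts under equal widths, a setting that changes the bases searched per anchor. The cause of the changes was not tested.

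With both widths at 10 kb, the 5 kb share of anchors with gene ends was 24.8%, with starts 11.5%, and of loops with ends at both anchors 8.58%. The differences from 10 kb loops were then 5.46, 2.09 and 3.71 points, and at 5 kb they were 3.31, 1.52 and 0.364 points. They were -5.33, -3.19 and -2.58 at the listed widths. With weighting, gene ends differed by 3.62 points at 10 kb and 2.09 at 5 kb, and both anchors by 2.18 and -0.695, while enclosing at least 1 gene differed by 5.64. With 5 kb added on each side, which leaves the 10 kb anchors the wider, the shares were 33.4%, 16.0% and 13.6%. The differences were -0.333, -0.748 and -0.264.

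With all gene types, the 5 kb shares were 25.3% (ends), 11.6% (starts) and 6.75% (both anchors), with differences of -7.52 for ends and -5.19 for both anchors. With any overlap, at the listed widths, they were 50.1% of anchors (difference -2.76), 25% of loops at both anchors and 97.2% for enclosed genes. Loops without a whole gene were 31.6% (difference -2.23).

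By span at the listed widths, from short to long, gene ends lay in 16.9, 12.2, 11.4 and 7.41% of 5 kb anchors, with differences of -7.76, -7.48 and, at 700 to 1000 kb, -7.36. For both anchors the differences were -3.75, -4.02 and, at 700 to 1000 kb, where the 5 kb share was 0%, -0.99. At least 1 gene was enclosed by 63.9% at 100 to 200 kb, 80.3% at 400 to 700 kb and 88.9% at 700 to 1000 kb (differences 7.64, 6.99 and 12.98). The difference in loops with no gene was -5.40 at 200 to 400 kb and -1.87 at 400 to 700 kb. Loops inside 1 gene were 1.36% at 400 to 700 kb and 0% at 700 to 1000 kb (differences -1.50 at 200 to 400 kb and -1.34 at 400 to 700 kb). Median scores were 4.84, 5.17 and 5.06 at 100 to 200, 400 to 700 and 700 to 1000 kb.

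Among loops at or above the median score, the median was 5.93, and the difference in enclosing at least 1 gene, 2.23 points in the report with an interval across 0, was -2.29. The median regional score was 2.49. Anchors within 5 kb of a 10 kb anchor were found in 39.5% of 5 kb loops. The outside to inside ratio was 2.67 at 700 to 1000 kb, and the longer letters were in 3.38% of promoters. Leaving out each chromosome moved none of the 12 values tried beyond the limits given above.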

Other observations

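The shortest and longest of the 5 kb loops of 100 kb to 1 Mb add genes not described above. The longest, of 995 kb on chromosome 8, scored 5.69 and enclosed genes that include Hhip, an antagonist of hedgehog ligands. The next were of 950 kb around Fign (5.37), 945 kb around Fgf10 (4.53), a ligand of limb and lung budding, and 935 kb around Tox3 (7.28), each with that gene alone. A loop of 895 kb on chromosome 15 (5.04) enclosed no whole gene. Among the loops of exactly 100 kb on chromosome 2, 1 enclosed only Ptf1a, a regulator of pancreas and cerebellum (5.29), and the other 4 shown by the same ordering enclosed no whole gene and scored between 3.28 and 5.25.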
